A study of Homo sapiens with 24 samples.

Results

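The sites described here lie in the major histone gene cluster on the short arm of chromosome 6, away from the start sites of its H4 genes. They were all sites of the authors' deposited tables that start between positions 25500000 and 28500000 of chromosome 6 (hg19), after leaving out those within 1 kb of 10 listed H4 start sites. This gave 232 of the 32666 sites in both tables, namely 194 Rbap46 sites and 38 H3K9ac sites. Another 13 Rbap46 and 6 H3K9ac sites lay within 1 kb of a listed H4 start, and the rest of chromosome 6 held 1626 and 104.

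The study used chromatin immunoprecipitation with sequencing (ChIP-seq) in hTert-HME1, a telomerase-immortalised human mammary epithelial line, to ask how the histone acetyltransferase HAT1 relates to histone genes. Of its 24 libraries, 10 stand behind the tables used here. Rbap46, the chaperone subunit that forms a complex with HAT1, was immunoprecipitated from untreated cells in 2 libraries and compared with 2 input libraries of untreated cells, made without an antibody. H3K9ac, acetylation of lysine 9 of histone H3, was mapped in 3 libraries of control cells (shControl) and 3 libraries of cells carrying a short hairpin RNA against HAT1 (shHAT1). The 3 shHAT1 libraries carry different codes in their titles, as do the 3 control libraries. The labels do not say whether these are clones, cultures or hairpins. Depth per library is unknown, and values have no spread between replicates. The tables give group means and no level of HAT1 or of epithelial marker genes, so neither the depletion nor the cell type could be checked.

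Replication-dependent histone genes are short, mostly lack introns and are transcribed mainly in S phase, when new DNA has to be packaged. Most human copies sit in this cluster, where genes for the core histones H2A, H2B, H3 and H4 and for the linker histone H1 alternate. Many H2A and H2B genes stand head to head and share the DNA between their start sites. The cluster also carries a dense group of tRNA genes, the butyrophilin genes of the immunoglobulin superfamily, and zinc finger genes towards its centromeric end. Acetylation of H3 at lysine 9 marks active promoters. HAT1 acetylates newly made H4 in its complex with Rbap46.

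RefSeq (GRCh38.p14) lists 55 histone genes here, of which 6 are H1, 12 H2A, 15 H2B, 10 H3 and 12 H4 genes. The 10 listed H4 start sites matched, in order, H4C1, H4C2, H4C3, H4C4, H4C5, H4C6, H4C8, H4C9, H4C11 and H4C12. H4C7 and H4C13 are not among them, so sites near those 2 genes are counted with the cluster. The sites are on hg19 and the gene table is on GRCh38.p14. Only the order of the genes was therefore used, and a site is placed in the stretch between its neighbouring listed H4 starts, not at a gene.

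The promoter letters of the histone genes were compared by class, and only the CCAAT box set every class outside H4 apart from H4. Of the 55 histone genes, 50 had a RefSeq promoter. The 250 bases before the start were searched on both strands for 3 motifs. The first was the CCAAT box, with the letters CCAAT. The second was the TATA box, with the letters TATAAA. The last was the octamer bound by the factor Oct-1, ATTTGCAT. Matches of different motifs that overlapped were each counted. CCAAT was in all 6 H1, all 11 H2A, all 15 H2B and all 8 H3 promoters and in 3 of 10 H4 promoters, against 32% of all 35116 RefSeq promoters. The octamer was in 9 of 11 H2A and 12 of 15 H2B promoters, in 1 of 8 H3 promoters and in 0 of 6 H1 and 0 of 10 H4 promoters, against 1.63% of all. TATAAA was in 8 of 11 H2A, 11 of 15 H2B, 6 of 8 H3, 3 of 6 H1 and 6 of 10 H4 promoters, against 10.7% of all. Windows of 9 H2A and H2B pairs share bases and both strands were searched, so 1 match can count in both classes. The H2A and H2B counts are therefore not separate observations. These matches describe letters in this window and are not evidence of binding.

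The promoters of H2BC8, H3C6, H1-3 and H2BC4 are shown as examples of the H1, H2B and H3 classes. The first 3 are listed between H4C5 and H4C6, the stretch that holds the H3K9ac cluster site with the largest loss. H2BC4 is listed between H4C3 and H4C4, the stretch that holds the strongest Rbap46 cluster site. Each run is 250 bases, 5′ to 3′ on the strand of the gene, on GRCh38.p14, and capitals mark the 3 motifs on either strand. H2BC8 is at chr6:26216689-26216938 (minus strand), H3C6 at chr6:26223928-26224177 (plus strand, the first of 2 listed starts), H1-3 at chr6:26234988-26235237 (minus strand) and H2BC4 at chr6:26123927-26124176 (minus strand). These positions are not on the build of the sites and were not compared with them.
H2BC8: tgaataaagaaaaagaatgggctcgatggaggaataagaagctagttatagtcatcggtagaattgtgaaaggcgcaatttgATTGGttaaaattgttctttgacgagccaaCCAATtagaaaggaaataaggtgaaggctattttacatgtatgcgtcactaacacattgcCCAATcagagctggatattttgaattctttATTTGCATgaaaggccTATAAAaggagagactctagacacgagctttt
H3C6: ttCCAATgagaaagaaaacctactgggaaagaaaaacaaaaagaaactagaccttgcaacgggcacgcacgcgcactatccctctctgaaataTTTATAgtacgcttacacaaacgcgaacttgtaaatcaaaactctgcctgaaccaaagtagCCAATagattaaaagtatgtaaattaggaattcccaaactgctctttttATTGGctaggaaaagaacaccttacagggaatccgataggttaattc
H1-3: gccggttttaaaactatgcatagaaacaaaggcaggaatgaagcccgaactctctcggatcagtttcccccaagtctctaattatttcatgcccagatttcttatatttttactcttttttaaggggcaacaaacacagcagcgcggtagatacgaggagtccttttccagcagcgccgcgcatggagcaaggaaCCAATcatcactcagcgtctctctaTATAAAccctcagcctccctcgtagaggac
H2BC4: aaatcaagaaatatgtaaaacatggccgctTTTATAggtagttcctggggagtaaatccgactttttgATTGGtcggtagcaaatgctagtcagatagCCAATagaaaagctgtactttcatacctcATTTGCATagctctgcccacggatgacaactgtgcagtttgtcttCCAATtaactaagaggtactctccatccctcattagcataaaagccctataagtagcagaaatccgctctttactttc
The octamer stands in both H2B promoters and in neither of the others. H2BC8 is listed head to head with H2AC8, and H2BC4 with H2AC6. For 9 H2A and H2B pairs of the cluster the full RefSeq windows, from 250 bases before to 50 bases after the start, share 253 to 293 bases, so a site between such genes could not be assigned to one of them even with an annotation of the same build.

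All 38 H3K9ac sites were lower in shHAT1 than in shControl cells. By the authors' deposited table, their median log2 fold, shControl minus shHAT1, was 1.11 with quartiles of 1.04 and 1.25, and a range of 0.77 to 1.40. This is a median loss of 2.16-fold. The authors' false discovery rate (FDR) limit was 0.1 for this table, and a loss was called at 18.0% of the sites they tested genome-wide. Every listed site had passed that limit and 2174 of all 2191 were losses, so nothing about the cluster is read from the direction.

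The median loss was larger in the cluster than on the rest of chromosome 6. Of the 38 cluster sites in the authors' deposited table, 32 (84.2%) were at least 2-fold lower in shHAT1 cells, a log2 fold of 1 or more, against 15 of 104 sites (14.4%) on the rest of the chromosome. Over all 2191 sites of the authors' deposited table that share was 18.4%. A loss at an FDR under 0.05 was given for 23 cluster sites (60.5%) and for 39 of the other 104, beside 36.1% of the whole table. The median fold of the rest of chromosome 6 in the authors' deposited table was 0.79 on the log2 scale, so the cluster median was 0.32 larger. Single sites elsewhere lost more. Folds on the rest of the chromosome ran from -1.14 to 4.57, with 2 of 104 at 2 or more, while the largest of the cluster was 1.40. Of the 20 sites of chromosome 6 with the largest loss, 14 were cluster sites, 1 was near a listed H4 start and 5 were elsewhere. By the authors' deposited table, the 6 sites near listed H4 starts had a median of 1.05, between 0.91 and 1.27, with 0 at an FDR under 0.05. The losses at and outside the H4 starts overlapped in range.

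**Figure D1:**
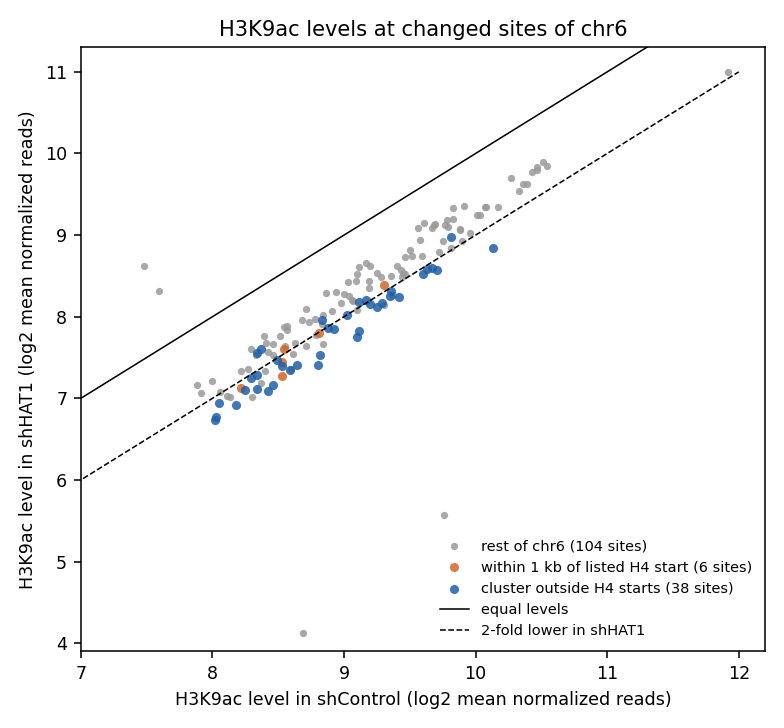
Each point is an H3K9ac site of chromosome 6 in the authors' deposited table, with its level in shControl cells on the horizontal axis and in shHAT1 cells on the vertical axis, both as log2 mean normalized reads. Of the 38 cluster sites (blue), 32 lie on or below the dashed line of a 2-fold loss, while most of the 104 other sites (grey) lie between it and the solid line of equal levels.

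The levels behind these folds were lower in the cluster than on the rest of the chromosome. In the authors' deposited table the median level (log2 mean normalized reads) was 8.86 in shControl and 7.79 in shHAT1 cells at cluster sites, and 9.18 and 8.44 at the other sites of chromosome 6. A site with few reads needs a larger fold to pass an FDR limit, so the sites were also split by their overall level into 3 equal classes over chromosome 6. In the lowest class the median loss in the authors' deposited table was 1.22 over 17 cluster sites and 0.87 over 30 others. The middle class gave 1.07 over 15 and 0.80 over 30, and the highest class 1.08 over 6 and 0.73 over 44. The cluster median was the larger one in each class. No value per library was available, so no test of this difference over samples could be made.

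The H3K9ac losses lay close to one another. Joined across gaps of up to 20 kb, the 38 sites made 11 runs, and 31 of them (81.6%) lay within 2 kb of another site of the table, against 26.9% on the rest of chromosome 6. The median gap to the nearest site was 0.39 kb in the cluster and 137 kb elsewhere on the chromosome. Neighbouring sites may therefore be parts of 1 acetylated region and are not separate observations. The largest run held 12 sites over 78.1 kb, from the stretch after H4C4 to the stretch after H4C6, with a median log2 fold of 1.23 and 10 of 12 at an FDR under 0.05. A run of 6 sites after H4C2 had a median of 1.08.

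The largest loss among the 38 cluster sites lay between H4C5 and H4C6, where RefSeq lists H2BC8, H2AC8, H3C6 and H1-3, the last a linker histone gene. Per the authors' deposited table, chr6:26234606-26235106 (hg19) had an H3K9ac level of 8.80 in shControl and 7.41 in shHAT1 cells, a log2 fold of 1.40 at an FDR of 0.0227. Its loss was 2.64-fold. A wider site of the same stretch, chr6:26223843-26224792, stood at 9.29 and 8.17 in the authors' deposited table, a fold of 1.11 at an FDR of 0.0200. The third site of the stretch, chr6:26217043-26217543, stood at 8.34 and 7.28, a fold of 1.07 in the authors' deposited table.

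Between H4C4 and H4C5, where H3C4, H2AC7 and H2BC7 are listed, 4 sites had a median of 1.17. The one of largest fold, chr6:26196429-26196929, was at 8.42 in shControl and 7.09 in shHAT1 cells, a log2 fold of 1.33 per the authors' deposited table. Its FDR of 0.0608 was nonetheless above that of sites with smaller folds. Between H4C6 and H4C8, which holds H4C7, H3C7, H2BC9, H3C8 and H2BC10, 5 sites had a median of 1.23. The authors' deposited table gave chr6:26271675-26272175 levels of 8.46 and 7.16 (fold 1.30, FDR 0.0465) and chr6:26250342-26250842 levels of 9.11 and 7.82 (fold 1.29, FDR 0.0293).

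The stretch between H4C3 and H4C4 held both the most acetylated cluster site and some of the smallest losses. It lists H1-6, the testis-specific linker histone gene, H1-4, H2AC6 and H2BC4, H2BC5 and H2BC6. The wide site chr6:26156089-26157055 had the highest shControl level of the 38, 10.13 against 8.84 in shHAT1 cells, and the lowest FDR of the 38, 0.0135, at a fold of 1.28 in the authors' deposited table. In the same run, chr6:26158390-26158890 stood at 8.82 and 7.53, a fold of 1.29 at an FDR of 0.0314 per the authors' deposited table. Other sites of the stretch, at chr6:26123592-26124092 and chr6:26124472-26124972, had folds of 0.92 and 0.83 in the authors' deposited table, from shControl levels of 9.11 and 9.81. Within this stretch the shControl level did not order the losses.

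After H4C2, where H3C2, H2AC4, H2BC3, H3C3, H1-2 and the iron regulator HFE are listed, 6 sites had folds between 1.02 and 1.24. By the authors' deposited table, chr6:26056772-26057272 went from 8.59 in shControl to 7.35 in shHAT1 (fold 1.24, FDR 0.0174). Its neighbour chr6:26056191-26056691 went from 9.63 to 8.59 in the authors' deposited table (fold 1.04, FDR 0.0217). Past H4C12, 6 sites in the stretch that lists H2AC15, H2BC15, H2AC16, H1-5, H3C11, H4C13, H3C12, H2AC17 and H2BC17 had a median of 1.06. They ended at chr6:27862217-27862717, 62.9 kb beyond the H4C12 start.

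The long stretches between listed H4 starts that carry tRNA genes gave a different picture. The tRNA genes before H4C1 and beyond H4C12 were not counted, so those end stretches are not shown to lack them. H4C8 to H4C9 spans 821 kb and lists 48 tRNA genes, 6 butyrophilin genes, ZNF322, HMGN4, a nucleosome-binding protein gene, ABT1, and only H2BC11, H2AC11 and H2BC12 of the histones. H4C9 to H4C11 spans 685 kb with 53 tRNA genes, ZNF391, ZNF184, the protease gene PRSS16, POM121L2 and 6 histone genes. Together these 1506 kb, with 101 tRNA and 9 histone genes, held 129 Rbap46 and 9 H3K9ac sites, or 8.57 and 0.598 per 100 kb. The 5 shorter stretches between H4C2 and H4C8, with 23 histone genes and no tRNA gene over 258 kb, held 24 Rbap46 and 23 H3K9ac sites, or 9.29 and 8.90 per 100 kb. Rbap46 sites were thus about as dense over the tRNA stretches as over the histone stretches, while listed H3K9ac losses were not. In the authors' deposited tables the median folds of these 2 sets of stretches were 1.01 and 1.10 for Rbap46 and 1.08 and 1.14 for H3K9ac.

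**Figure D2:**
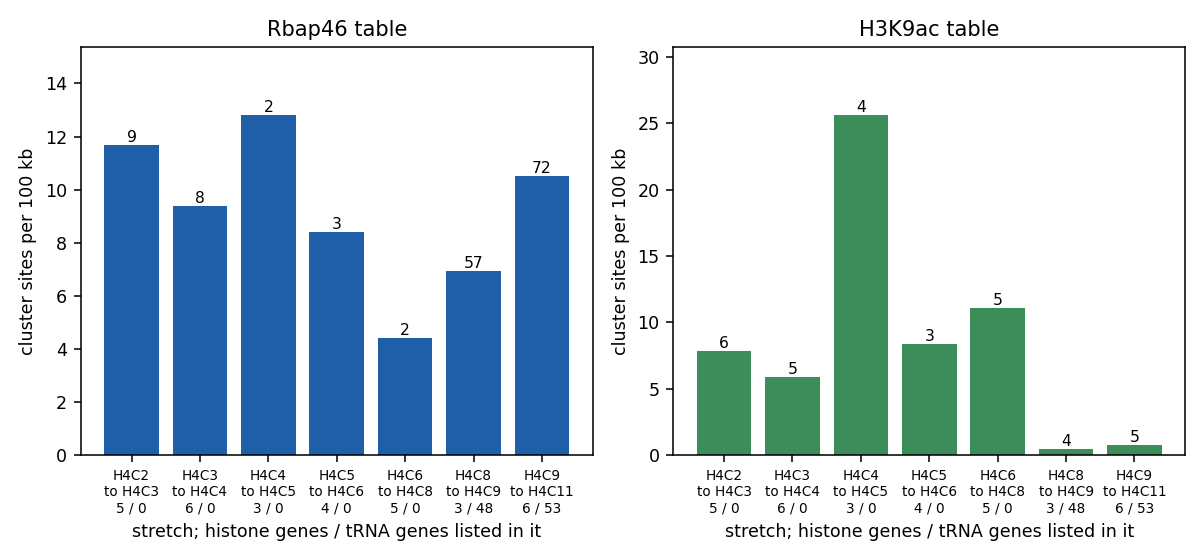
Bars give the number of cluster sites per 100 kb in each stretch between listed H4 starts that holds histone genes, for the Rbap46 table (left) and the H3K9ac table (right), from counts of sites in the authors' deposited tables. The number above a bar is its count of sites, and the last line of each label gives the histone and tRNA genes listed there. The stretches with 48 and 53 tRNA genes keep their Rbap46 density and have few H3K9ac sites.

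Of the 9 H3K9ac sites in the tRNA stretches, 7 lay within 40 kb of a listed H4 start. One of them, chr6:27113546-27114046, 6.45 kb from H4C9, had the second-largest loss of the cluster, from 9.10 in shControl to 7.75 in shHAT1 cells (fold 1.36, FDR 0.0282 in the authors' deposited table). The other 2 had the smallest folds of all 38 sites. In the authors' deposited table chr6:26365313-26365813, 79.5 kb from H4C8, stood at 8.37 in shControl and 7.60 in shHAT1 (fold 0.77, FDR 0.0992). The second, chr6:27218831-27219788, 112 kb from H4C9, stood at 8.34 and 7.55 (fold 0.79, FDR 0.0731 in the authors' deposited table). These 2 folds are close to the 0.79 median of the rest of the chromosome. Across the cluster, 33 of 38 H3K9ac sites (86.8%) and 52 of 194 Rbap46 sites (26.8%) lay within 40 kb of a listed H4 start. The share of the window within that distance was not computed, so neither percentage is read as high or low for its table.

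**Figure D3:**
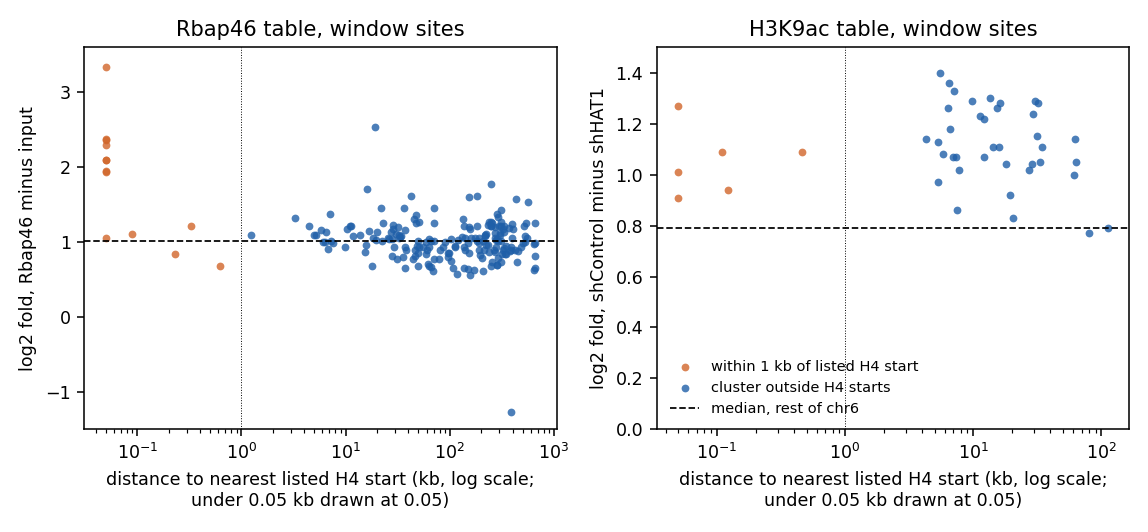
Log2 fold of each site of the window in the authors' deposited tables against its distance to the nearest listed H4 start (log scale, kb), for Rbap46 over input (left) and for H3K9ac loss in shHAT1 cells (right). Orange points lie within 1 kb of a listed H4 start, blue points are the cluster sites and the dashed line is the median of the rest of chromosome 6. Rbap46 folds above 2 stand within 1 kb, with 1 exception, while H3K9ac losses are of like size from the H4 starts to beyond 10 kb.

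By distance, the 14 H3K9ac sites at 1 to 10 kb had a median loss of 1.13 on the log2 scale in the authors' deposited table, the 19 at 10 to 40 kb had 1.11, and the 4 at 40 to 100 kb had 1.02. Spearman's rho between loss and distance was -0.32 over the 38 sites. It was -0.24 with overall level and -0.42 with the shHAT1 level, which itself enters the fold. Sites share libraries and neighbours share regions, so these are descriptions. The 1 kb limit itself fell in a gap, with H4 starts given to the nearest 0.1 kb. The nearest cluster site was 4266 bp from a listed H4 start with a fold of 1.14, and the farthest site left out was 463 bp away with a fold of 1.09.

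Rbap46 was above input at 193 of its 194 cluster sites. Per the authors' deposited table, the median log2 fold over input was 1.02 with quartiles of 0.88 and 1.18, a 2.03-fold enrichment, beside 1.02 for the rest of chromosome 6 and 1.05 for the whole table. A log2 fold of at least 1 was given for 108 cluster sites (55.7%), for 863 of 1626 others on the chromosome (53.1%) and for 58.0% of the table. The authors called enrichment at 37.6% of the sites they tested. The share of the cluster is close to both backgrounds, and its Rbap46 folds were of the size found elsewhere. At the 13 sites near listed H4 starts the median in the authors' deposited table was 1.95, with 6 at 2 or more, against 1 of 194 in the cluster. A fold of 2 or more was given for 10 of 1626 sites (0.615%) on the rest of chromosome 6 and for 0.968% of the table. Just outside the 1 kb limit, at 1228 bp, chr6:26206128-26206628 had a fold of 1.09, and just inside, at 622 bp, chr6:26286422-26286922 had 0.68 in the authors' deposited table.

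**Figure D4:**
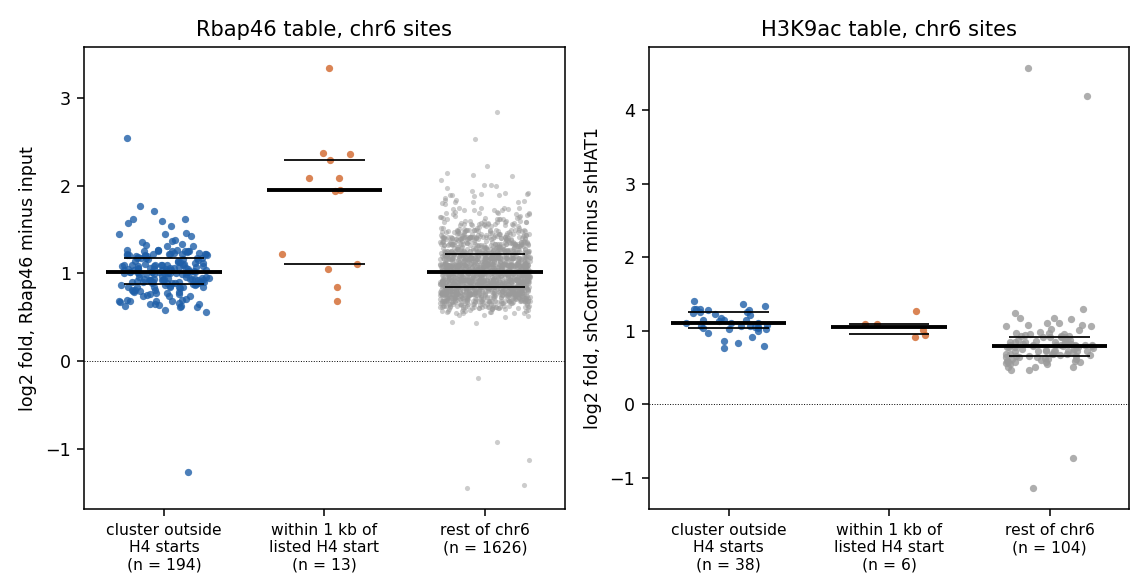
Log2 folds of chromosome 6 sites in the authors' deposited tables for Rbap46 over input (left) and H3K9ac in shControl over shHAT1 (right). Points are sites, the thick line is the median and the thin lines are the quartiles. The cluster has the Rbap46 median of the rest of the chromosome (1.02 each) and an H3K9ac median of 1.11 beside 0.79.

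What differed for Rbap46 was the number of sites. The cluster held 64.7 listed Rbap46 sites per Mb and the rest of chromosome 6 held 9.70, a ratio of 6.67. For H3K9ac losses the densities were 12.7 and 0.628 per Mb, a ratio of 20.2. Counted over 100 kb bins that hold at least 1 site, these ratios were 2.86 and 8.76. The input level was also higher under the cluster sites, with a median of 6.33 against 6.01 on the rest of the chromosome in the authors' deposited table. That rest had 6.16 over the 380 sites before the window and 5.98 over the 1246 after it. Densities were not computed for each side. The Rbap46 level was 7.28 in the cluster against 6.99 on the rest of the chromosome. A site with more reads passes an FDR limit at a smaller fold, and the part of the input level in the density was not tested. Within the low, middle and high classes of overall level, the median Rbap46 folds of cluster and other sites in the authors' deposited table were 0.94 and 1.02, 0.93 and 0.92, and 1.10 and 1.09.

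The strongest Rbap46 site of the cluster lay between H4C3 and H4C4. By the authors' deposited table, chr6:26123066-26123566 (hg19) had a level of 9.34 in Rbap46 and 6.80 in input, an enrichment of 2.54 on the log2 scale (FDR 3.72e-64), the fifth site of the whole table by p-value. That is 5.82-fold, which puts it in the range of the sites at the H4 starts although the nearest listed one, H4C3, is 18966 bp away. This site ended 25 bp before the H3K9ac site at chr6:26123592-26124092, whose loss of 0.92 was among the smaller ones. The genes listed in the stretch are H1-6, H2BC4, H2AC6, H1-4, H2BC5 and H2BC6, and which of them the site belongs to was not analysed here.

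The next strongest Rbap46 sites lay mostly outside the stretches dense in histone genes, as did most Rbap46 cluster sites. A fold of at least 1.5 was given for 2 of 24 sites (8.33%) in the 5 shorter histone stretches. It was given for 3 of 129 (2.33%) in the tRNA stretches and 3 of 34 (8.82%) beyond H4C12, where tRNA genes were not counted. The share was 4.12% over the cluster, 6.4% on the rest of chromosome 6 and 9.89% over the whole table. No stretch is therefore read as raised. In the authors' deposited table chr6:28048543-28049043, 249 kb beyond H4C12, had levels of 8.68 in Rbap46 and 6.91 in input (fold 1.77, FDR 3.07e-26). Between H4C2 and H4C3, which lists HFE beside histone genes, chr6:26087640-26088140 had 7.49 and 5.78 (fold 1.71, FDR 4.06e-12 in the authors' deposited table). In the tRNA and butyrophilin stretch, chr6:26327879-26328379 had 8.04 and 6.42 (fold 1.62, FDR 1.62e-13) and chr6:26924414-26924914 had 7.37 and 5.75 (fold 1.62, FDR 1.49e-10 in the authors' deposited table). All 8 cluster sites with a fold of at least 1.5 missed every H3K9ac site of the table, which is the usual state, since 12.9% of all Rbap46 cluster sites and 5.41% of the whole Rbap46 table overlapped one. Apart from the site 25 bp away, their gaps to the nearest one were between 30.4 and 505 kb.

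By p-value the leading cluster sites also included 3 outside the stretches dense in histone genes, as were most Rbap46 cluster sites. Per the authors' deposited table, chr6:26596940-26597440, between H4C8 and H4C9, had levels of 8.43 in Rbap46 and 6.99 in input (fold 1.43, FDR 2.01e-16). Beyond H4C12, where zinc finger genes of the ZSCAN and ZKSCAN families follow the last histone genes, chr6:28367437-28367937 had 8.44 and 6.90 (fold 1.54, FDR 1.26e-15) and chr6:28234715-28235215 had 8.15 and 6.59 (fold 1.57, FDR 1.18e-14 in the authors' deposited table). The 34 Rbap46 sites beyond H4C12 had a median fold of 0.99, and the 7 before H4C1, where H1-1, H2AC1, H2BC1 and H3C1 are listed, one of 0.94 with a maximum of 1.36 at chr6:25974105-25974605. Of the 38 H3K9ac cluster sites, 0 lay before H4C1 and 0 lay from 28 Mb to the end of the window, where 27 Rbap46 cluster sites stood.

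The largest Rbap46 run, with gaps of up to 20 kb joined, lay in the stretch of 53 tRNA genes between H4C9 and H4C11. Its 30 sites spanned chr6:27440827-27662147, or 221 kb, with folds between 0.70 and 1.60, a median of 1.04 per the authors' deposited table and 0 overlaps with an H3K9ac site. Its strongest site, chr6:27640064-27640564, had 7.91 in Rbap46 and 6.31 in input (fold 1.60, FDR 3.24e-14 in the authors' deposited table). In the stretch of butyrophilin and tRNA genes, 22 sites over 126 kb and 21 sites over 139 kb formed the next runs, with medians of 1.04 and 1.06 in the authors' deposited table and 1 overlap with an H3K9ac site between them. Few overlaps are the rule for Rbap46 sites, with 4.43% on the rest of chromosome 6, and nothing particular to these runs is read from them.

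A single cluster site was below input. At chr6:26673884-26674384, between H4C8 and H4C9, the authors' deposited table gave 3.95 in Rbap46 and 5.23 in input (fold -1.27, FDR 0.0256). Its Rbap46 level was the lowest of the 194 sites.

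The shorter histone stretches differed in their highest Rbap46 fold, but a maximum tends to rise with the number of sites. From H4C2 to H4C8 they held 9, 8, 2, 3 and 2 Rbap46 sites, with median folds of 1.00, 1.12, 1.06, 1.09 and 1.08. The highest fold was 2.54 between H4C3 and H4C4 and 1.71 between H4C2 and H4C3, at the sites given above, and lower in the other 3. The authors' deposited table gave 1.10 between H4C4 and H4C5 at chr6:26199450-26199950 (levels 8.11 and 7.02) and 1.22 between H4C6 and H4C8 at chr6:26251682-26252182 (levels 6.94 and 5.72). Between H4C5 and H4C6, its 3 sites had folds of 1.08 to 1.10. The H3K9ac losses had medians of 1.08 between H4C2 and H4C3, 1.15 between H4C3 and H4C4, 1.17 between H4C4 and H4C5, 1.11 between H4C5 and H4C6 and 1.23 between H4C6 and H4C8.

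The tables were then joined by overlap of at least 1 bp, with the caution that they may not describe the same genome. On chromosome 22, between 19 and 24 Mb, the input level of untreated cells had a median of 7.47 over 184 sites against 5.50 over 571 other sites of that chromosome, while the H3K9ac level of shControl cells was 9.27 over 4 sites and 9.42 over 41 others in the authors' deposited tables. Input and H3K9ac levels are unlike measures, and the latter rests on 4 sites here, so these values cannot show whether the segment differs between the cells. Whether both tables come from the same cells was not tested. Of the 38 H3K9ac cluster sites, 27 overlapped an Rbap46 site, or 71.1% (exact Clopper-Pearson 95% interval 54.1 to 84.6, for counting error only). On the rest of chromosome 6 it was 77 of 104, or 74.0% (64.5 to 82.1), and at listed H4 starts 6 of 6. Where 50% of the H3K9ac site had to be covered, the share in the cluster was 39.5%. Neighbouring sites are not separate observations, so no comparison is drawn from the intervals of the cluster and of the rest of the chromosome. Seen from the other table, 25 of 194 Rbap46 cluster sites (12.9%) overlapped an H3K9ac site, against 72 of 1626 (4.43%) elsewhere on the chromosome, where H3K9ac sites are also sparser.

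In the cluster, Rbap46 sites under an H3K9ac loss had folds close to those of the other cluster sites. The 25 Rbap46 cluster sites in the overlaps had folds of 0.71 to 1.38 with a median of 1.02 per the authors' deposited table. The 169 other Rbap46 cluster sites also had a median of 1.02. Of the 25 overlapping sites 0 reached 1.5, against 4.12% of all 194 Rbap46 cluster sites. Elsewhere on chromosome 6 the 72 overlapping Rbap46 sites had a median of 1.17, with 17 (23.6%) at 1.5 or more. The 1554 others there had 1.01 and 5.6% in the authors' deposited table. The H3K9ac loss had a median of 1.07 over the 27 cluster sites with an Rbap46 site and 1.14 over the 11 without one in the authors' deposited table. Their median overall levels were 8.49 and 7.95, and a site with few reads needs a larger fold to pass. On the rest of chromosome 6 the median losses were 0.75 with and 0.88 without an Rbap46 site, at levels of 9.04 and 8.27 in the authors' deposited table. Over the 27 cluster pairs Spearman's rho between both folds was 0.19. At the cluster site of largest loss, chr6:26234606-26235106, the overlapping Rbap46 site chr6:26234887-26235387 had levels of 7.68 and 6.58 in input (fold 1.10, FDR 2.83e-07 in the authors' deposited table). The Rbap46 site under chr6:27113546-27114046 had a fold of 1.14 and the one under chr6:26158390-26158890 a fold of 1.11 in the authors' deposited table. The H3K9ac sites at chr6:26196429-26196929 and chr6:26271675-26272175, with losses of 1.33 and 1.30, overlapped no listed Rbap46 site. Midpoints of H3K9ac sites, overlapping or not, were compared with the nearest midpoint of an Rbap46 site above input. The median offset was 332 bp in the cluster, 223 bp at listed H4 starts and 293 bp on the rest of the chromosome. Of all 38 cluster sites, 15 lay within 250 bp.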

How the data were processed

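ChIP-seq sites were taken from 2 tables of the authors' own comparisons, Rbap46 against input (2 libraries each) and H3K9ac in shControl against shHAT1 cells (3 libraries each). The columns, per the file headers, match a DiffBind report. Per the submitters' processing notes, reads were handled with cutadapt, Bowtie2, SAMtools, Picard, MACS2 and DiffBind on hg19. R 3.3.1 is named for the Rbap46 and input libraries alone. DESeq2 is also listed among the upstream tools, without a version. Whether it gave the p-values of either comparison, and how libraries were scaled, was not established here.

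The deposited levels and folds are log2 values of normalized group means. Each p-value and FDR is the authors' deposited one. The tables hold sites up to an FDR of 0.05 (Rbap46) and under 0.1 (H3K9ac). The tested totals were recovered from p-value, FDR and rank as 80831 to 80834 and 12048 to 12049 sites. With group means only, no SD, test over samples or depth per library could be had, which replaced the tests in the design. The tables were normalized separately, so levels were compared within a table. Not analysed here were the other 14 libraries, of HAT1, H4K5ac and H4K12ac.

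Sites were selected by position, and distances run from the nearest edge of a site to an H4 start given to 0.1 kb. Overlap needed 1 bp. The distance function was tested on simulated positions, the overlap function on sites with shuffled starts against bedtools, and the recovery of tested totals on 20 simulated tables. The members, H4 list and comparisons were chosen with earlier results of these data known. Named sites were, per table, the 5 of largest absolute fold, the 5 of smallest p-value, those of opposite direction, the largest of each stretch, those on both sides of the 1 kb limit, and the overlap pairs of the leading H3K9ac sites. Any other site was chosen after its values were seen. The split by level, the gap of 20 kb and the grouping by tRNA genes were added after the data were seen. Scripts ran in Python 3.11.15 with pandas 2.3.3, numpy 2.4.6 and matplotlib 3.10.9. Intervals came from scipy 1.17.1.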

Additional observations from a re-analysis of the deposited data

How the results depend on the processing

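Of 44 alternatives, 36 kept their value within the limits set, 8 moved further and 0 reversed. The H3K9ac median difference between the cluster and the rest of chromosome 6, 0.32 on the log2 scale, ran from 0.29 to 0.35 under the alternatives tried, and that of Rbap46, 0.00, from -0.03 to 0.01. These alternatives were other distances around H4 starts, a window of 26 to 28 Mb, stricter FDR limits, all other sites of the table as the comparison and sites of high level only. A log2 fold of at least 1 left 108 of 193 Rbap46 sites above input. An FDR under 0.05 left 23 of 38 H3K9ac sites. With an overlap of 50% of the H3K9ac site, 39.5% instead of 71.1% overlapped an Rbap46 site. The density ratios depended most on the length used. Counted over 100 kb bins with a site, the Rbap46 ratio was 2.86 instead of 6.67 and the H3K9ac ratio 8.76 instead of 20.2, and with the window of 26 to 28 Mb the latter was 30.4. Against all other sites of the table, the input level was 0.49 higher in the cluster (0.32 against the rest of chromosome 6) and the shControl H3K9ac level differed by -0.43 (-0.32). No paired analysis was possible because each deposited column is a mean over a group. Leaving out a library was not run for that reason. Depth per library is unknown, and sites that missed the FDR limits were not used here, so a stretch without listed sites is not shown to lack Rbap46 or a change in H3K9ac.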
